A study of Mus musculus with 8 samples.

Results

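Semaphorins and plexins were compared between cells of embryonic mouse cortex and lung that were sorted by a fluorescent vessel reporter and were mixed, as described below. The families were taken as every gene whose symbol in the array annotation names a semaphorin of classes 3 to 7 or a plexin of groups A to D. They numbered 29 of the 18193 genes measured, with 20 semaphorins, the ligands, and 9 plexins, the receptors. All 29 had a probe set of their own, and none was removed by a filter.

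Semaphorins are guidance proteins that steer growing axons and sprouting vessels, mostly by repulsion. Class 3 members are secreted, classes 4 to 6 span the membrane, and Sema7a is held to it by a lipid anchor. Plexins are large transmembrane receptors whose intracellular part acts on small GTPases of the Ras and Rap families and so on adhesion and the actin skeleton. Most secreted semaphorins reach plexins through the neuropilins Nrp1 and Nrp2, whereas Sema3e binds the endothelial receptor plexin D1 directly.

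The cortex group held GFP-positive cells from the cortex of E13.5 embryos, with meninges and choroid plexus removed, and the lung group held GFP-positive cells from the lungs of E13.5 embryos. All animals were homozygous for Tie2-GFP, a transgene that makes green fluorescent protein under control of the Tie2 promoter, and no group lacked it. That promoter works in endothelium and is also known to be active in some blood cells. Each tissue had 4 Affymetrix arrays, numbered 72, 22, 19 and 18 in both, and each replicate was the pooled material of 1 litter of 10 to 13 embryos, so that p-values measure the spread between these pools. The comparison asks how vessels of the developing brain differ from those of another organ at the same age, though the sorted cells were not vessel cells alone, as the markers below show. The description field of the 4 samples numbered 19 and 18 named the other tissue, and title, source name and tissue label were followed. Below, values of a gene are log2 expression values in the order of arrays 72, 22, 19 and 18, means carry the SD over 4 arrays, and differences are cortex minus lung on the log2 scale.

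The sorted cells were mixed, in a way that bears on every value below. The mean of 26 endothelial markers was 9.85, 11.20, 11.35 and 9.43 in cortex, against 11.69, 11.68, 11.80 and 11.22 in lung. Cortex arrays 72 and 18 were therefore the lowest of the 8 in endothelial transcripts. The mean of 18 neuron markers was 11.48, 10.90, 11.04 and 11.61 in cortex and 6.59, 6.87, 6.49 and 6.61 in lung, and 17 of the 18 were higher in cortex and 1, Lhx6, was higher in lung. All 10 measured neural progenitor markers were higher in cortex, with means of 9.69 to 10.52 in cortex and 5.03 to 5.43 in lung. Tubb3, the neuronal tubulin, averaged 12.70 ± 0.45 in cortex and 5.47 ± 0.50 in lung, and the progenitor factor Sox2 11.33 ± 0.21 and 4.42 ± 0.45. Among 15 mesenchymal and mural markers 8 favoured lung and 1 favoured cortex, with means of 6.47 to 7.12 in cortex and 7.31 to 9.52 in lung. Col1a1, a fibrillar collagen, averaged 8.75 ± 0.93 in cortex and 11.54 ± 0.93 in lung. Of 10 microglial and haematopoietic markers 5 were higher in cortex, with means of 5.45 to 8.49 in cortex and 4.76 to 5.85 in lung. Of 5 measured erythroid markers 2 were higher in cortex, of 7 lung epithelial markers 1 lay on the cortex side and 2 on the lung side, and of 4 lymphatic markers 1 lay on each side. Of the 26 endothelial markers 6 were higher in lung, 0 were higher in cortex and 20 were not called, and 24 had a difference below 0. Among those not called were Pecam1 (8.98 ± 1.06 in cortex, 10.46 ± 1.03 in lung, adjusted p = 0.149) and Cdh5 (8.39 ± 1.09 in cortex, 9.65 ± 1.06 in lung, adjusted p = 0.225). The part that neural, mesenchymal or blood cells have in the differences of semaphorins and plexins was not tested, and fewer cells of a type cannot be told apart from less RNA per cell.

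Both families differed between the tissues mainly through members that were higher in cortex. Of 20 semaphorins 7 rose in cortex, 2 fell and 11 were not called. Of 9 plexins 5 rose in cortex, 1 fell and 3 were not called. The background over all genes was 18.1%, made up of 10.4% with a rise and 7.71% with a fall in cortex (limma, adjusted p under 0.05), so that the 45% of semaphorins and 66.7% of plexins called lay above that background. The median difference was 0.16 for semaphorins and 0.75 for plexins, against -0.09 for all genes. The semaphorin median turned to -0.05 when arrays were centred on their medians, a scaling that moved the median of all genes to -0.30. Class 4 and class 5 ligands and the A and B plexins held 11 of the 12 members higher in cortex, with the secreted Sema3c as the other. The members higher in lung were the secreted ligands Sema3f and Sema3d and the vascular receptor Plxnd1. None of these 3 calls held once arrays were brought to an equal endothelial marker mean (0.0023 for Sema3f, -0.56 for Sema3d and -0.38 for Plxnd1). That scaling moved the median of all genes to 1.05 and the number of genes called higher in lung from 1403 to 144. The loss of these calls is therefore not particular to these 3 genes. The call of Plxnd1 also ended in 6 of the 8 fits that left out 1 array. The arrays of all 15 called members did not overlap between tissues, as for 24.5% of all genes, and those of the 14 others did.

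**Figure D1:**
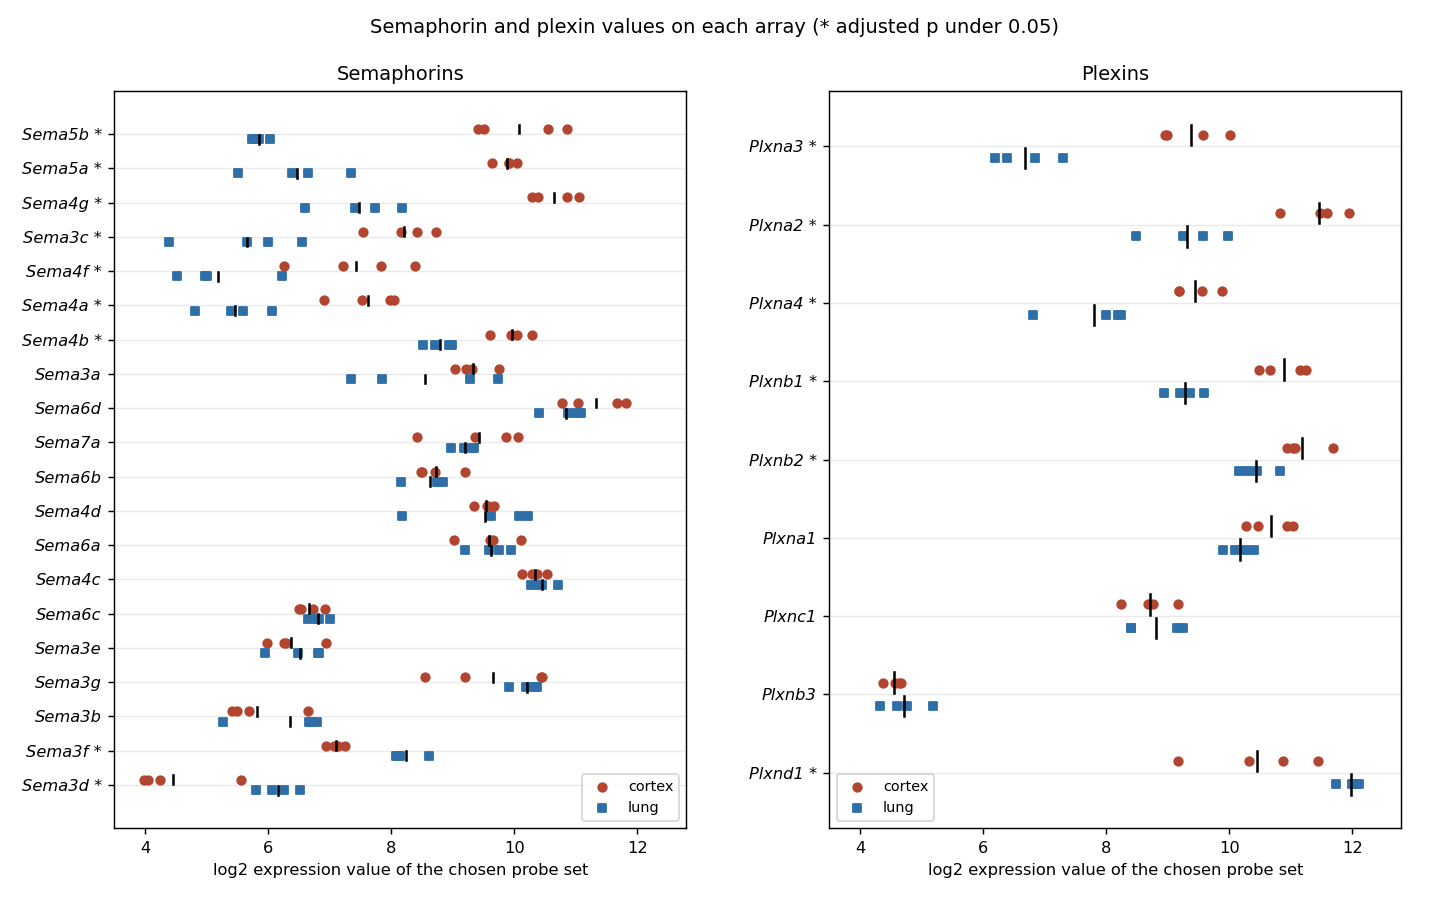
Log2 expression values of the 20 semaphorins and 9 plexins on each array (horizontal axis), with 4 cortex arrays as circles above and 4 lung arrays as squares below in each row; black ticks are tissue means and asterisks mark an adjusted p under 0.05. The circles lie right of the squares without overlap for 12 members, such as Sema5b (9.41 to 10.86 in cortex, 5.73 to 6.03 in lung), and left of them for Sema3f, Sema3d and Plxnd1, none of which stayed called with arrays at an equal endothelial marker mean (0.0023, -0.56 and -0.38). That scaling moved the median of all genes to 1.05.

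Both class 5 semaphorins, membrane proteins with thrombospondin repeats that guide growing axons, rose in cortex. Sema5b lay at 10.86, 9.41, 9.51 and 10.56 in cortex, against 5.80, 5.85, 6.03 and 5.73 in lung. The tissues were far apart, and cortex arrays 72 and 18 were the highest. It was 18.8-fold higher in cortex, the largest difference of the 29 genes (4.23 ± 0.33 SE, adjusted p = 5.72e-05). Sema5a lay at 10.04, 9.92, 9.64 and 9.92 in cortex, against 7.35, 6.38, 6.64 and 5.50 in lung. Its cortex arrays were close together (SD 0.17) and its lung arrays spread over a wider range (SD 0.76). It was 10.6-fold higher in cortex (3.41 ± 0.34 SE, adjusted p = 0.000244), and averaging its 4 probe sets lowered the difference to 2.04.

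Of the 6 class 4 semaphorins, membrane ligands that act mainly through B plexins, 4 rose in cortex, namely Sema4g, Sema4f, Sema4a and Sema4b. Sema4g, a ligand of plexin B2, lay at 11.05, 10.38, 10.29 and 10.86 in cortex, against 8.18, 6.59, 7.74 and 7.40 in lung. No lung array reached the cortex values, and the difference was 8.96-fold (3.16 ± 0.34 SE, adjusted p = 0.000333). Sema4f, known from neurons and oligodendrocyte precursors, lay at 8.39, 7.21, 6.26 and 7.83 in cortex, against 6.22, 4.52, 5.01 and 4.98 in lung. Its lowest cortex array, 19, and its highest lung array, 72, nearly met, and the difference was 4.74-fold (2.24 ± 0.50 SE, adjusted p = 0.0154). Sema4a, a ligand of B plexins and of plexin D1, lay at 8.04, 6.90, 7.53 and 7.99 in cortex, against 6.06, 4.80, 5.59 and 5.40 in lung. Array 72 was the highest in both tissues, and the difference was 4.45-fold (2.15 ± 0.33 SE, adjusted p = 0.00236). Sema4b lay at 9.94, 10.04, 9.60 and 10.29 in cortex, against 8.99, 8.94, 8.71 and 8.52 in lung. Its values were tight in both tissues and 2.26-fold apart (1.18 ± 0.18 SE, adjusted p = 0.00273), and the call ended when its 2 probe sets were averaged (0.49, adjusted p = 0.0512).

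The other class 4 members, Sema4c and Sema4d, were not called. Sema4c, another plexin B2 ligand, averaged 10.33 ± 0.17 in cortex and 10.45 ± 0.18 in lung, and the 95% confidence interval of its difference ran from -0.47 to 0.22. Sema4d, the ligand of plexin B1 known from lymphocytes and axons, averaged 9.54 ± 0.13 in cortex and 9.52 ± 0.93 in lung. The spread in lung came from array 18, at 8.18, below 10.22, 9.62 and 10.08 on the other 3, and the interval ran from -0.92 to 0.95.

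The 7 secreted class 3 semaphorins went both ways, of which 1 rose in cortex, 2 fell and 4 had no call. Sema3c, which guides neural crest cells and vessels through neuropilins and plexins A and D1, lay at 8.72, 8.41, 8.15 and 7.55 in cortex, against 6.55, 6.002, 5.65 and 4.39 in lung. Array 18 was the lowest and array 72 the highest in both tissues, without overlap between them. The difference was 5.90-fold (2.56 ± 0.45 SE, adjusted p = 0.00496), and 1.54 on the log2 scale when its 2 probe sets were averaged. Sema3d, known in mouse for keeping the pulmonary veins on their path, lay at 3.98, 4.05, 5.55 and 4.24 in cortex, against 6.25, 6.51, 5.80 and 6.07 in lung. Cortex array 19 stood above the other 3 cortex arrays and close to lung array 19, the lowest of the lung arrays. Sema3d was 3.25-fold higher in lung (-1.70 ± 0.35 SE, adjusted p = 0.0108), and its second probe set lay at -0.80 without a call. The probe set used was among those left out when dim ones were removed, as were those of the called members Sema3c, Sema3f, Sema4a and Sema4f. Sema3f, the repellent that acts through Nrp2, lay at 7.07, 7.14, 7.25 and 6.94 in cortex, against 8.12, 8.08, 8.14 and 8.62 in lung. It was 2.20-fold higher in lung (-1.14 ± 0.16 SE, adjusted p = 0.00159), with the smallest spread of the called semaphorins in cortex (SD 0.13). With arrays shifted so that their endothelial marker means were equal (called the endothelial shift below), which moved the median of all genes to 1.05, Sema3f came to 0.0023 and Sema3d to -0.56, and neither passed.

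The 4 class 3 members without a call were Sema3a, Sema3b, Sema3e and Sema3g. Sema3g, known from arterial endothelium, lay at 9.20, 10.43, 10.46 and 8.56 in cortex, against 10.19, 10.37, 10.32 and 9.92 in lung. Cortex arrays 22 and 19 were level with lung, whereas 72 and 18 were below it (adjusted p = 0.412). Without cortex arrays 72 and 18, a choice made after seeing the data, its difference turned from -0.54 to 0.24, and the endothelial shift turned it to 0.60. Sema3e, the direct ligand of plexin D1, lay at 6.28, 5.97, 6.25 and 6.95 in cortex, against 6.48, 6.82, 5.95 and 6.83 in lung. Its tissues overlapped throughout, with an interval of -0.77 to 0.46. Sema3a, the Nrp1 ligand that collapses growth cones, averaged 9.33 ± 0.31 in cortex and 8.55 ± 1.14 in lung. Its lung arrays fell apart into 9.74 and 9.28 on 72 and 19, and 7.86 and 7.34 on 22 and 18. The mesenchymal and mural marker mean had the same order on the lung arrays, 9.52, 8.76, 8.35 and 7.31 on 72, 19, 22 and 18, and its part in the spread was not tested. Sema3b averaged 5.81 ± 0.57 in cortex and 6.35 ± 0.73 in lung (adjusted p = 0.395). Sema3a, Sema3c, Sema3d and Sema3e all lie on chromosome 5, and their differences of 0.78, 2.56, -1.70 and -0.15 had no common direction.

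None of the 4 class 6 semaphorins, membrane ligands of A plexins, was called, nor was Sema7a. Their differences were between -0.15 for Sema6c and 0.48 for Sema6d. The intervals were -0.60 to 0.56 for Sema6a, -0.41 to 0.61 for Sema6b, -0.48 to 0.19 for Sema6c and -0.14 to 1.09 for Sema6d. Sema6d, a ligand of plexin A1 known from heart development in chick, lay at 11.05, 11.67, 11.82 and 10.77 in cortex, against 11.09, 10.88, 11.03 and 10.40 in lung. Cortex arrays 22 and 19 were above all lung arrays, and cortex 72 and 18 were among them. Sema7a, the lipid-anchored ligand of plexin C1 and integrins, lay at 9.36, 9.87, 10.06 and 8.42 in cortex, against 8.97, 9.35, 9.18 and 9.33 in lung. Cortex arrays 22 and 19 were again the highest and 18 the lowest of all 8, with a difference of 0.22 (adjusted p = 0.68).

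**Figure D2:**
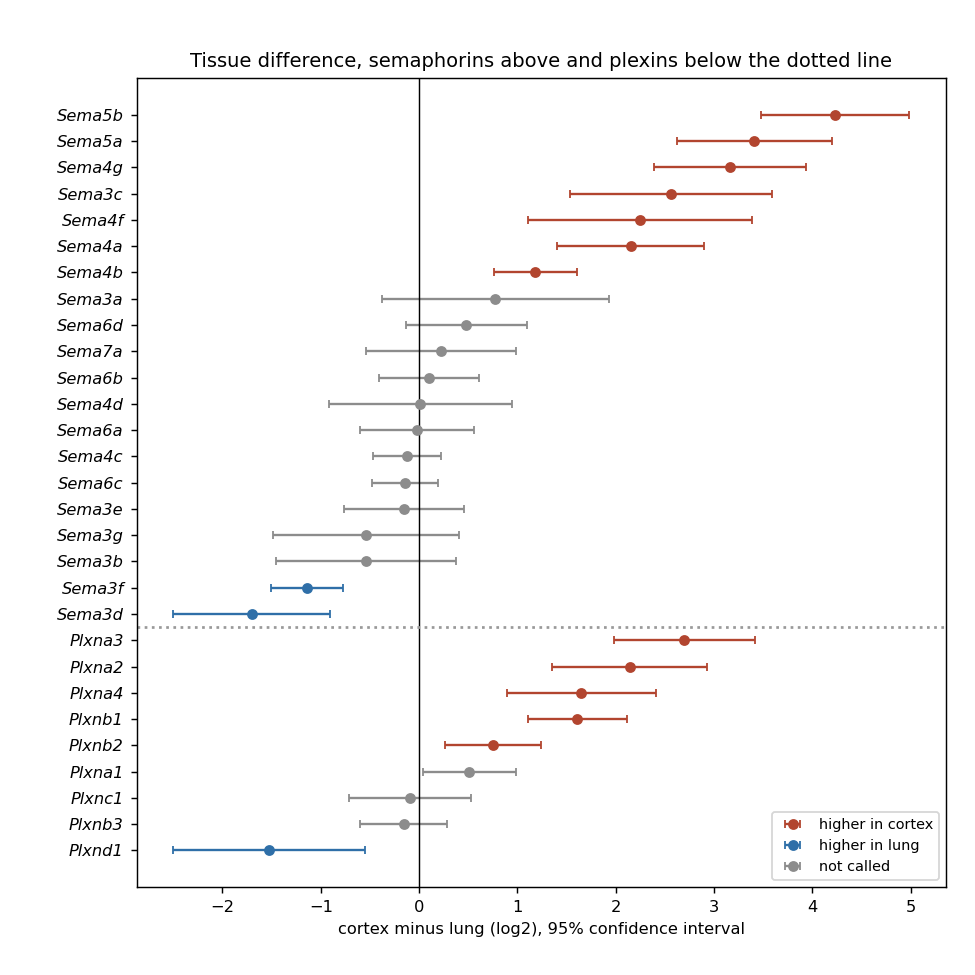
Difference between tissues (cortex minus lung, log2, horizontal axis) of each member with its 95% confidence interval from limma, semaphorins above and plexins below the dotted line, each sorted by difference. Class 5 and most class 4 ligands lie right of 0 and class 6 ligands straddle it. Among receptors Plxna3 lies farthest right (2.70) and Plxnd1 alone lies left of 0 with its whole interval (-2.50 to -0.55), which did not hold once arrays were shifted to the same endothelial marker mean (-0.38). That shift moved the median of all genes to 1.05.

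Among receptors, 3 of the 4 A plexins, which pair with neuropilins or bind class 6 ligands, rose in cortex. Plxna3, the main Sema3f receptor of axons, lay at 10.01, 8.96, 8.99 and 9.57 in cortex, against 7.30, 6.20, 6.85 and 6.39 in lung. Every cortex array was above every lung array, by 6.48-fold on average (2.70 ± 0.31 SE, adjusted p = 0.000533). Plxna2, a receptor of Sema6a and Sema3 ligands, lay at 11.94, 11.48, 10.82 and 11.58 in cortex, against 9.25, 9.57, 9.98 and 8.48 in lung. Array 19 was the lowest in cortex and the highest in lung, and the difference was 4.41-fold (2.14 ± 0.35 SE, adjusted p = 0.00329). Plxna4, which serves Sema3a and class 6 ligands in axons, lay at 9.88, 9.18, 9.19 and 9.55 in cortex, against 7.99, 8.19, 8.23 and 6.81 in lung. The difference was 3.13-fold (1.65 ± 0.33 SE, adjusted p = 0.0099), and the call ended without cortex arrays 72 and 18 (1.38, adjusted p = 0.11). Plxna1, the receptor of Sema6d, lay at 11.03, 10.28, 10.48 and 10.94 in cortex, against 10.41, 9.90, 10.28 and 10.09 in lung. Its arrays overlapped, with a difference of 0.51 (adjusted p = 0.131).

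Of the 3 B plexins, receptors of class 4 semaphorins, Plxnb1 and Plxnb2 rose in cortex. Plxnb1, the Sema4d receptor, lay at 11.25, 10.66, 10.49 and 11.15 in cortex, against 9.20, 8.95, 9.37 and 9.60 in lung. It was 3.05-fold higher in cortex (1.61 ± 0.22 SE, adjusted p = 0.00133). Plxnb2, a receptor of neural progenitors for Sema4c and Sema4g, lay at 11.69, 11.04, 10.95 and 11.08 in cortex, against 10.82, 10.16, 10.31 and 10.45 in lung. The tissues were close but did not overlap, 1.69-fold apart (0.75 ± 0.21 SE, adjusted p = 0.0421). Plxnb2 lost its call when cortex 72, 22 or 18 or lung 22, 19 or 18 was left out (0.59 to 0.80) and with arrays centred on their medians (0.55, adjusted p = 0.0696). Plxnb3, a Sema5a receptor of glia, averaged 4.56 ± 0.13 in cortex and 4.71 ± 0.37 in lung and was not called.

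Plxnd1, the plexin of endothelium through which Sema3e and other ligands restrain sprouting, was the receptor higher in lung. It lay at 10.32, 10.88, 11.44 and 9.16 in cortex, against 12.00, 12.05, 12.12 and 11.73 in lung. Lung arrays were nearly level, while cortex arrays spread over more than 2 log2 units with 19 highest and 18 lowest. The difference was 2.88-fold (-1.53 ± 0.43 SE, adjusted p = 0.0398). The endothelial marker mean had the same order on the cortex arrays, with 19 highest, then 22, 72 and 18, and its part in the difference was not tested. After the endothelial shift, which moved the median of all genes to 1.05, the difference of Plxnd1 was -0.38 (adjusted p = 0.558). Plxnd1 also lost its call when cortex 72 or 22 or any lung array was left out (-1.48 to -1.67). Plxnc1, the Sema7a receptor, averaged 8.71 ± 0.38 in cortex and 8.81 ± 0.47 in lung, with an interval of -0.71 to 0.53.

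The promoters of the member with the largest called difference in each family and direction are shown, as letters a reader can set beside these values. They are RefSeq windows on GRCm38.p6, from 250 bases before to 50 after the annotated start, written 5′ to 3′ on the strand of the gene. Sema5b (chr16:35541112-35541411, plus strand) and Plxna3 (chrX:74328816-74329115, plus strand) were higher in cortex, and Sema3d (chr5:12382916-12383215, plus strand) and Plxnd1 (chr6:115994956-115995255, minus strand) were higher in lung. Capitals mark the GC box GGGCGG on either strand in Plxna3 and Plxnd1 and the ETS core CCGGAA in Sema3d.
Sema5b: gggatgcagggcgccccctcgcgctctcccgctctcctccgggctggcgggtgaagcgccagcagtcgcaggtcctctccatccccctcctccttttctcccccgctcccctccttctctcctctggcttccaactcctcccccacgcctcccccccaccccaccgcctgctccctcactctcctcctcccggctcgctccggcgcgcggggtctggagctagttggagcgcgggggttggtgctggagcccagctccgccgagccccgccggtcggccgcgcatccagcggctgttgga
Plxna3: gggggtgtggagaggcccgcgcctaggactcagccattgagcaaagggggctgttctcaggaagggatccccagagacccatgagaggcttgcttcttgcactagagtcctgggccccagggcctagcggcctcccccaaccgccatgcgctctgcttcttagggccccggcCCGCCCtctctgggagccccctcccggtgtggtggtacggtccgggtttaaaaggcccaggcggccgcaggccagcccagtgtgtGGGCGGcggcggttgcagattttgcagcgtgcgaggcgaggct
Sema3d: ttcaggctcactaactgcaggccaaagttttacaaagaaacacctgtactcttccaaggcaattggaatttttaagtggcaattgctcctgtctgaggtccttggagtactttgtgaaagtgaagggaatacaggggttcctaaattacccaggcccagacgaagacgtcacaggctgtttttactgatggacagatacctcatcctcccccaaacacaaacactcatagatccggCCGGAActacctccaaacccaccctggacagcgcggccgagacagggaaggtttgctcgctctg
Plxnd1: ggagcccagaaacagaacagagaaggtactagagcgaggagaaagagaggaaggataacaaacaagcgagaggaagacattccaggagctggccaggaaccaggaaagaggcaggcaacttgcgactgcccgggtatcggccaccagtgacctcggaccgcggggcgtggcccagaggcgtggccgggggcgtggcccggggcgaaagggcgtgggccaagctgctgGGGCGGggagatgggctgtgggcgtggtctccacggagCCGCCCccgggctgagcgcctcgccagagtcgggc
Windows were found for 24 of the 29 members, 35 in all, since some genes have several starts. The GC box stood in 25 of these 35 windows (71.4%), against 35.7% of 32841 promoter windows of the same length. The ETS core stood in 4 (11.4%), against 14.9% of all windows, the E-box CAGCTG in 6 (17.1%), against 16.3%, and the forkhead core TGTTTA in 1 (2.86%), against 13.4%. These are counts of letters on both strands, in windows that partly overlap, and no factor was measured.

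Set beside each other, ligands and receptors known to pair did not share a direction throughout. Plxnb2 rose in cortex, a call that ended in several of the fits that left out an array. Of its ligands, Sema4g rose in cortex and Sema4c had a difference of -0.12. Plxnb1 rose in cortex with its ligand Sema4d at a difference of 0.014. Sema5a rose in cortex, and its receptor Plxnb3, with low values in both tissues, had a difference of -0.16. Plxna3 rose in cortex while its ligand Sema3f fell, though not after the endothelial shift. Plxnd1 fell in cortex, though its call ended after the endothelial shift and when cortex 72 or 22 or any lung array was left out. Its ligand Sema3e had a difference of -0.15, and Sema3c and Sema4a, which can also bind Plxnd1, rose. Plxnc1 and Sema7a were both not called. Plxna2 rose in cortex with its class 6 ligand Sema6a at a difference of -0.02.

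Of 16 co-receptors and partners, 3 rose in cortex, 4 fell and 9 were not called, so that 43.8% were called, against 18.1% of all genes. The 3 that rose were adhesion molecules of axons, Cntn2 (10.70 ± 0.43 in cortex, 4.79 ± 0.13 in lung), Chl1 (10.64 ± 0.31 in cortex, 4.81 ± 0.24 in lung) and L1cam (10.73 ± 0.47 in cortex, 7.30 ± 0.83 in lung). Nrp2 fell, at 10.94, 10.94, 11.39 and 10.92 in cortex, against 11.57, 11.90, 11.85 and 11.99 in lung. The difference was 1.72-fold (-0.78 ± 0.16 SE, adjusted p = 0.0112), and it turned to 0.36 after the endothelial shift. Nrp1 lay at 11.75, 12.49, 12.62 and 11.56 in cortex, against 12.77, 13.11, 13.00 and 12.74 in lung. Its arrays did not overlap, as for 24.5% of all genes, yet it did not pass (-0.80, adjusted p = 0.0648), and it turned to 0.34 after the endothelial shift. The others that fell were the receptor kinases Met (5.95 ± 1.01 in cortex, 8.49 ± 0.71 in lung, adjusted p = 0.0112) and Mst1r (5.39 ± 0.39 in cortex, 6.43 ± 0.34 in lung, adjusted p = 0.0184) and the integrin subunit Itgb1 (9.69 ± 0.79 in cortex, 11.06 ± 0.35 in lung, adjusted p = 0.0375). After the endothelial shift none of the 4 stayed called, with Met at -1.40 (adjusted p = 0.0681), Itgb1 at -0.23 and Mst1r at 0.10. With the sample number as a block Mst1r did not pass (adjusted p = 0.0519). Itgb1 also lost its call when cortex 72 or 18 or lung 72, 22 or 19 was left out (-1.05 to -1.32), and Mst1r without lung 22 or lung 19 (-0.93 and -0.98). Co-receptors called lower in cortex then numbered 2 without lung 22 or lung 19, and those called higher numbered 5 without cortex 18. Leaving out cortex 72 and 18 together ended the calls of Nrp2 (-0.67), Met (-1.86) and Itgb1 (-0.73).

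Of 33 measured signalling genes downstream of plexins, 9 rose in cortex, 2 fell and 22 were not called. The share called was 33.3%, against 18.1% of all genes, and the 2 of 33 that fell were no larger a share than the 7.71% of all genes. The largest rises were those of the collapsin response mediators Dpysl5 (11.60 ± 0.36 in cortex, 5.85 ± 0.67 in lung, 54.0-fold) and Dpysl4 (10.78 ± 0.49 in cortex, 6.995 ± 0.41 in lung, 13.8-fold), which carry Sema3a signals in neurons. The small GTPases Rnd2 (11.46 ± 0.56 in cortex, 8.55 ± 0.42 in lung, 7.53-fold) and Rnd3 (10.49 ± 0.31 in cortex, 7.84 ± 1.33 in lung, 6.26-fold) followed. Mical2, an actin-oxidising enzyme, fell to 6.13 ± 0.62 in cortex, against 9.62 ± 0.63 in lung (11.2-fold, adjusted p = 0.000395). Rras, a GTPase on which plexins act, fell to 9.35 ± 0.84 in cortex, against 10.62 ± 0.14 in lung (adjusted p = 0.0468). Rras lost its call when cortex 72 or any lung array was left out (-1.20 to -1.31), which left 1 gene lower in cortex. Its call also ended with the sample number as a block (adjusted p = 0.0642), after the endothelial shift (-0.12) and with array weights (adjusted p = 0.0515), whereas Mical2 passed in these 3 fits. Leaving out cortex 72 and 18 together left 6 signalling genes called higher in cortex and 1 called higher in lung. Rras (-0.61) and Rnd3 (2.55) were among those that lost their calls there.

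The order of the cortex arrays was shared by many members. For 10 of the 12 members higher in cortex, the highest pair of cortex arrays was 72 and 18, and for 0 of them it was 22 and 19. Sema3c and Sema4b were the exceptions. The pair 72 and 18 was the highest for 58.3% of the 1888 genes higher in cortex and for 28.8% of all genes. It was the highest for 14 of the 18 neuron markers, whereas 22 and 19 were the highest for all 26 endothelial markers. Among the 17 other members, 22 and 19 were the highest for 7, namely Plxnd1, Sema3g, Sema7a, Sema6d, Sema3f, Sema4c and Plxnb3, and 72 and 18 for 5. Without cortex arrays 72 and 18, which have the lowest endothelial means, 6 semaphorins rose in cortex and 1 fell, and 3 plexins rose and 0 fell. Sema5b (3.61), Sema5a (3.31), Sema4g (2.85), Plxna3 (2.29) and Plxna2 (1.83) were among the members still called there, and Sema4f (1.56, adjusted p = 0.129), Sema3d (-1.36, adjusted p = 0.119), Plxnb2 (0.56) and Plxnd1 (-0.82) were not. Calls on 2 cortex arrays rest on few values.

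**Figure D3:**
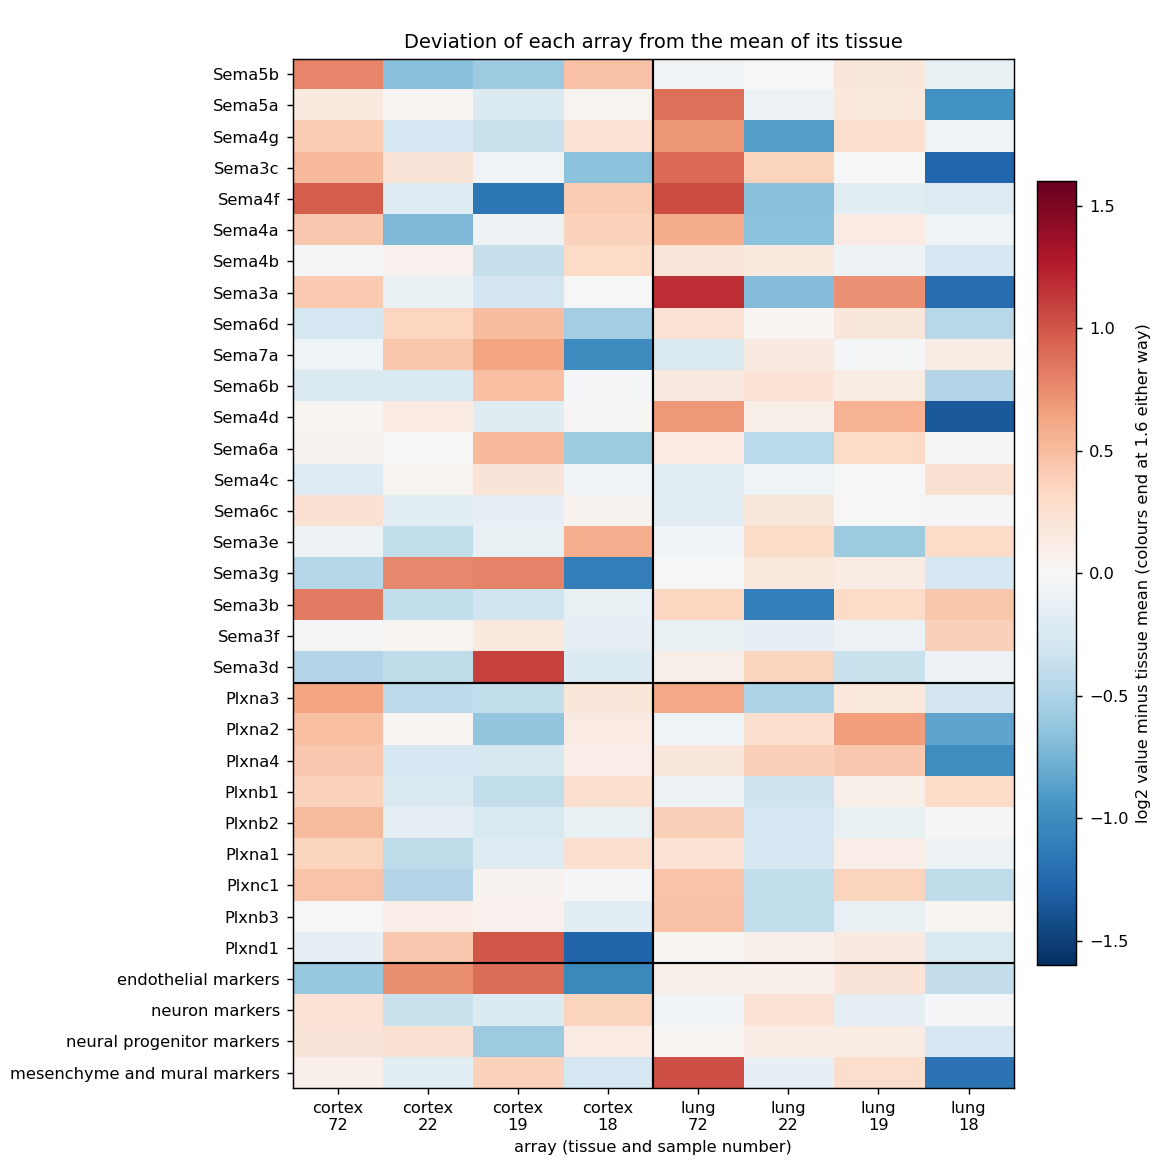
Log2 value on each array minus the mean of its own tissue, for the 29 members (rows, semaphorins above plexins, each sorted by tissue difference) and 4 marker lists (bottom rows), with cortex arrays left and lung arrays right. In cortex, Sema3g, Sema7a, Sema6d and Plxnd1 share the blue on array 18 and the red on arrays 22 and 19 of the endothelial markers, and Sema5b, Sema4g and Plxna3 show the opposite order; in lung, Sema3a, Sema3c and Sema5a are red on array 72 and blue on array 18, as the mesenchymal markers are.

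Most members had several probe sets, 70 in all for the 29 genes. For 23 genes with more than 1, no other probe set was called in the opposite direction, but for 9 genes at least 1 had the opposite sign without a call. Plxna2 was called higher in cortex by all 4 of its probe sets (1.17 to 2.19), and Sema3f lower in cortex by all 3 (-0.81 to -1.14). Plxna3, Plxna4, Plxnb1, Sema4a and Sema5b were called by both of theirs. The second probe sets of Sema3c (0.53), Sema3d (-0.80) and Sema4f (0.97) had smaller differences without a call, and that of Sema4b lay at -0.21. Of the 4 probe sets of Sema5a, those at 3.41 and 3.62 were called and those at 1.35 and -0.24 were not. Over probe sets rather than genes, Plxnb2 (adjusted p = 0.0574) and Plxnd1 (adjusted p = 0.0542) did not pass.

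**Figure D4:**
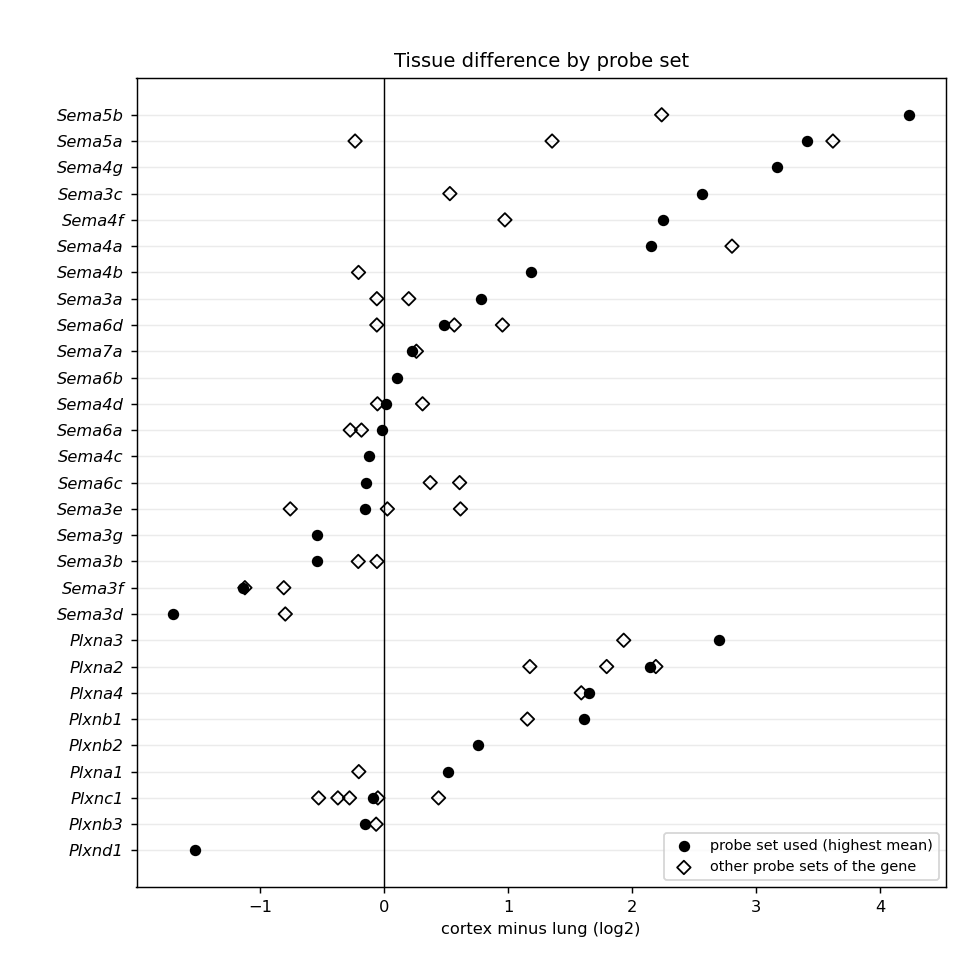
Cortex minus lung difference (log2, horizontal axis) of each probe set of the 29 members; filled circles are the probe sets used, those with the highest mean, and open diamonds the others. Plxna4 (1.65 and 1.59) has its diamond near its circle, the diamonds of Sema3f run from -0.81 to -1.12 beside a circle at -1.14, and those of Plxna2 from 1.17 to 2.19 beside a circle at 2.14, while Sema5b (4.23 and 2.24), Sema3c (2.56 and 0.53) and Sema4b (1.18 and -0.21) have their circle and diamond far apart.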

How the data were processed

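RNA of GFP-positive cells from 4 cortex and 4 lung pools was, per the labels' protocols, linearly amplified and hybridised to Affymetrix arrays. Values are log2 intensities summarised for each probe set, as deposited by the authors. They come from RMA and the affy package, per the submitters' processing notes, with versions not given in the sources used here. RMA subtracts background, equalises the arrays and combines the probes of a set. RMA compresses low values, so folds of dim genes are understated, and it gives no detection call. The lowest value was 2.82 and the highest 15.02, array medians lay between 6.59 and 6.72, and precision is limited by how few arrays there are. The table's 8 columns were mapped by identifier and 0 were left out.

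Control probe sets (64) were removed. Of 45037 others, 34945 named 1 gene in the platform annotation, 932 several and 9160 none here. A gene was read from its brightest single-gene probe set, by the average of the 8 arrays, which gave 18193 genes. The tissue comparison used limma 3.58.1 (R 4.3.3), without a block and without a filter on dim probe sets. Benjamini-Hochberg adjustment of the two-sided p-values ran over all genes, with calls at an adjusted p under 0.05 and intervals at 95%. The fit was tested on simulated data of 18193 genes. Of 100 genes changed by 2 log2 units it called 82, of 100 changed by 1 it called 46, and 10 of its 138 calls were false. No other genes were changed and the noise was independent between arrays. In the data 3291 genes were called, so these shares need not hold there. Members, gene lists and alternatives were chosen with earlier results of these data known. All members were named, with Nrp1, Nrp2, called co-receptors, the 4 called signalling genes with the largest difference each way and 5 marker genes (Pecam1, Cdh5, Tubb3, Sox2 and Col1a1). Others are named where a count asks for it. Listed genes without a probe set of their own are not analysed here. The alternatives left out each array, added the sample number as a block, rescaled arrays by their median or by the endothelial marker mean, weighted arrays, left out dim probe sets, averaged probe sets or let the prior follow the mean. Leaving out cortex arrays 72 and 18 was added after seeing the data. Python 3.11.15 and matplotlib 3.10.9 drew the figures.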

Additional observations from a re-analysis of the deposited data

Results flagged for a closer look

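Each member was checked in each tissue for an array far from the other 3, in 58 groups of 4 arrays, and chance marks about 1 in 20 such groups. In 5 of them the gap to the nearest array passed Dixon's 95% critical share of the group's range. Sema3b was lowest on lung array 22, at 5.26 with the nearest at 6.66 (a gap of 0.909 of the range). Sema3f was highest on lung array 18, at 8.62 with the nearest at 8.14 (0.882). Sema6b was lowest on lung array 18, at 8.15 with the nearest at 8.74 (0.849). Plxna4 was lowest on lung array 18, at 6.81 with the nearest at 7.99 (0.8291). Sema3d was highest on cortex array 19, at 5.55 with the nearest at 4.24 (0.838). Lung array 18 held 3 of the 5, and it also had the lowest endothelial and mesenchymal marker means of the lung arrays, 11.22 and 7.31, whose part in these values was not tested.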

How the results depend on the processing

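Counts of semaphorins called stayed at 7 higher in cortex and 2 higher in lung without any 1 array, with the sample number as a block, with centred arrays, with array weights and with a mean-variance trend. Without dim probe sets, which removed 9 members, they were 4 and 0. The endothelial shift gave 9 and 0, averaging probe sets 6 and 2, and leaving out cortex 72 and 18 gave 6 and 1. Plexins higher in cortex numbered 4 to 5 without 1 array and 3 without cortex 72 and 18. Plexins higher in lung numbered 0 to 1 without 1 array, 0 after the endothelial shift and 0 without cortex 72 and 18. Co-receptors higher in cortex numbered 3 to 5 without 1 array, 7 after the endothelial shift, 5 with array weights and 6 without cortex 72 and 18, and those higher in lung 2 to 5, 0, 6 and 1. Signalling genes higher in cortex numbered 8 to 9 without 1 array, 15 after the endothelial shift and 6 without cortex 72 and 18. Those higher in lung numbered 1 to 3 without 1 array, 1 with the block, 1 after the endothelial shift, 1 without cortex 72 and 18, 4 with centred arrays and 4 without dim probe sets. Over all genes the endothelial shift gave 4023 higher in cortex and 144 higher in lung with 1 SE of 0.592 for every gene, and leaving out cortex 72 and 18 gave 1057 and 632. Without 1 array, calls over all genes were 1393 to 1966 towards cortex and 956 to 1274 towards lung. Those higher in lung were 2410 with centred arrays and 2233 with array weights.

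Members whose sign turned had no call, except Sema3f, which the endothelial shift took to 0.0023. That shift also turned Sema3b (0.60), Sema3e (0.99), Sema3g (0.60), Sema4c (1.02), Sema6a (1.12), Sema6c (0.995), Plxnb3 (0.98) and Plxnc1 (1.05), and outside the families Nrp1 (0.34), Nrp2 (0.36, called before) and Mst1r (0.10, called before), while the median of all genes lay at 1.05. Sema3a (1.92), Sema6d (1.62) and Plxna1 (1.65) gained a call there, and Sema3d (-0.56), Sema3f and Plxnd1 (-0.38) lost theirs. Array weights turned Sema3e (0.13), Sema4d (-0.40) and Sema6b (-0.00086), centring turned Sema4d (-0.19) and Sema6b (-0.11), and averaged probe sets turned Sema6c (0.28). Leaving out cortex 72 and 18 turned Sema3g (0.24), Sema4d (-0.017) and Sema6a (0.24). Without 1 array the sign turned for Sema4d (-0.43 to 0.25), Sema6a (-0.19 to 0.17), Sema6b (-0.062 to 0.18), Plxnc1 (-0.24 to 0.065) and Plxnb3 (-0.29 to 0.0011). The cause of these changes was not tested. The deviations of same-numbered arrays correlated over genes at 0.33, -0.16, 0.01 and 0.31 for 72, 22, 19 and 18, and those of differently numbered arrays at -0.35 to 0.31. These values cannot decide whether equal numbers mark pairs, and the labels do not say. The main fit therefore assumed no pairs. With the sample number as a replicate block 1801 genes were higher in cortex and 1342 higher in lung, no semaphorin or plexin changed its call, and Nrp1 passed (adjusted p = 0.0372).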
